A study of Mus musculus with 15 samples.

Results

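The ileum of germ-free mice carrying a single bacterium, Ruminococcus gnavus, was compared with the ileum of germ-free mice given only sterile saline. The comparison used 10 of the series' 15 libraries, and it covered the 3530 of 4178 listed genes that reached 1 TPM (a transcript abundance scaled by length and by library total) in at least 5 of the 15 libraries. All mice were adult germ-free C57BL/6 animals. The 5 RG mice were gavaged with 200 µl of R. gnavus, an anaerobe of the human gut that forages on mucin sugars. The 5 LGG mice, used here only where RG is set against a second colonized group, received 200 µl of Lacticaseibacillus rhamnosus GG. The 5 PBS mice received 200 µl of sterile phosphate-buffered saline and stayed germ-free. Whole ileum was taken 21 days later, 1 library per mouse, and the labels give no sex, cage, batch or hour of dissection. All 3 groups are germ-free animals by origin, so each colonized group carried a single species in place of a conventional microbiota, and the labels give no number of bacteria recovered from the mice.

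The ileal epithelium is a single layer of cells renewed from crypts. Most are enterocytes, whose brush border of microvilli carries the peptidases, sugar-splitting enzymes and transporters of the final steps of digestion, and among them sit mucus-secreting goblet cells and, in the crypts, Paneth cells that release antimicrobial peptides. Microbes act on this layer through receptors for bacterial products and through metabolites. Germ-free mice are known for altered rhythms of clock genes and of transport genes in the small intestine.

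The libraries looked like small intestine. Vil1, the actin bundler of microvilli, lay between 466 and 700 TPM in RG and between 268 and 371 TPM in PBS, and 40 Paneth cell genes together held 12.03 to 16.6% of all TPM in RG and 12.5 to 16.3% in PBS. The listed genes held 58.7 to 66.1% of all TPM in RG and 58.6 to 65.5% in PBS, and sequencing depth is unknown because TPM does not keep it. Some libraries stood apart. In RG mouse 2 the summed level of 21 listed T and NK cell genes reached 1056 TPM, while the remaining RG mice held 46.5 to 83.1 TPM and the PBS mice 32.3 to 72.2 TPM. In PBS mouse 1 the summed level of 15 liver genes was 1209 TPM, against 147 to 275 TPM in RG and 213 to 389 TPM in the remaining PBS libraries. There, 13 smooth muscle genes summed to 3917 TPM, against 1234 to 1783 TPM in RG and 1315 to 2283 TPM in the remaining PBS libraries. RG mouse 5 held 18.4% of its TPM in 11 mitochondrially encoded genes, against 5.56 to 10.4% in the remaining RG mice and 6.05 to 10.4% in PBS. The column of RG mouse 5 also lacks the lane mark that the other 14 columns carry, and that of PBS mouse 1 carries an added number. No listed gene of these marker lists was at 0 in all RG and PBS mice. In whole tissue, fewer cells of a type and less RNA per cell cannot be told apart.

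**Figure D1:**
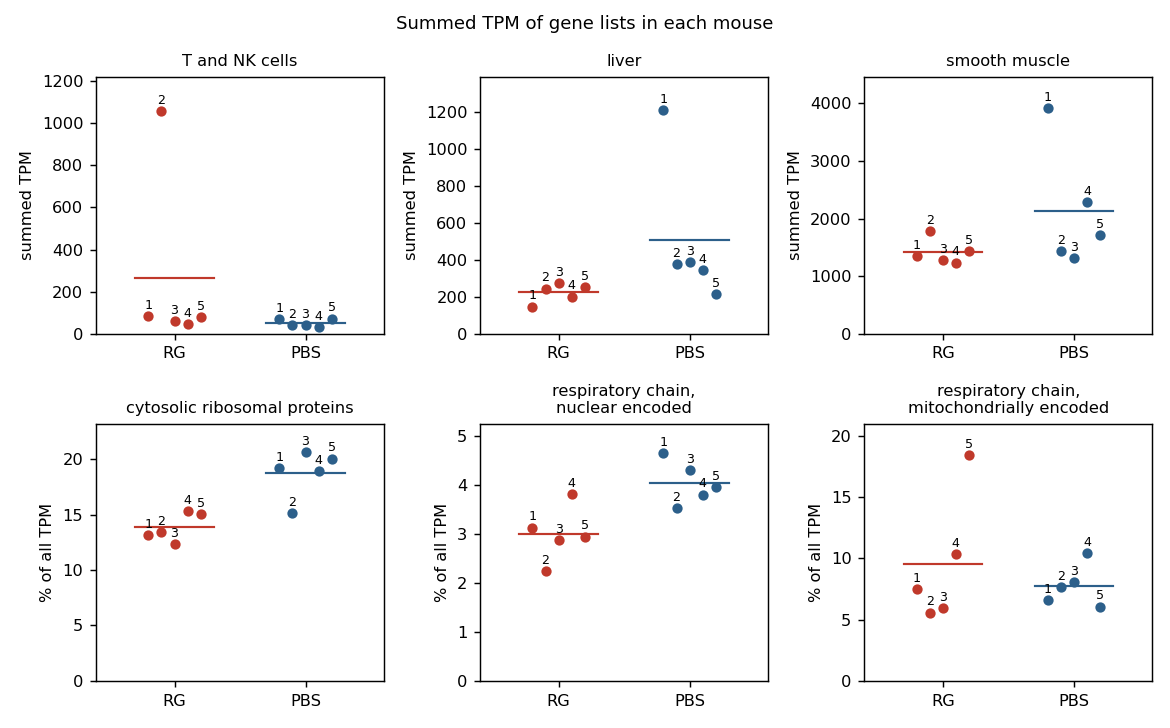
Summed TPM of 6 gene lists in each RG mouse (red, left) and PBS mouse (blue, right), on linear axes from 0, in TPM for the upper panels and in percent of all TPM for the lower panels. Points carry the mouse number and horizontal lines are group means. RG mouse 2 stands at 1056 TPM for T and NK cell genes and PBS mouse 1 at 1209 TPM for liver genes, and ribosomal protein genes lie at 12.3 to 15.3% in RG and 15.1 to 20.6% in PBS.

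Relative to the PBS ileum, the RG ileum held more transcripts of Nos2, of 4 genes of the circadian clock and of a set of brush-border peptidases and transporters. On the deposited scale 804 of the 3530 genes were higher in RG (22.8%) and 144 were lower (4.08%), by limma-trend on log2(TPM + 1) with a Benjamini-Hochberg adjusted p under 0.05. Groups did not overlap for 458 genes with all RG mice above all PBS mice (13.0%) and for 96 genes with all RG mice below (2.72%). The balance between the directions depended on scaling. After median-of-ratios scaling over the listed genes, 42 genes were higher in RG (1.19%) and 570 lower (16.1%), and after upper-quartile scaling 133 were higher (3.77%) and 472 lower (13.4%). Higher genes were thus 84.8% of the calls on the deposited scale, 6.86% after median-of-ratios scaling and 22.0% after upper-quartile scaling. The median log2 difference of all genes was 0.38 on the deposited scale, 0.07 after median-of-ratios and 0.14 after upper-quartile scaling, a shift of -0.31 and -0.24.

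The calls also depended on single mice. Leaving out PBS mouse 3 left 40 higher and 0 lower genes, and leaving out RG mouse 4 gave 1278 higher and 316 lower. The number of calls moved by more than 1.5 times with 5 other mice as well: 150 genes passed without RG mouse 2, 177 without RG mouse 3, 437 without PBS mouse 1, 624 without PBS mouse 4 and 124 without PBS mouse 5. Once RG mice 2 and 5 and PBS mouse 1 were all left out, limma called 0 genes, with a lowest adjusted p of 0.107 and 965 genes at an unadjusted p under 0.05, against 1758 at that level with all libraries. All 41 genes higher on all 3 scales and all 144 lower on all 3 scales were set against the 10 fits that each leave out 1 RG or PBS mouse. Those 10 fits were made on the deposited scale only. The 1 without PBS mouse 3 called 0 lower genes, so no lower gene could pass throughout. Of the 41 higher genes, 25 passed throughout (0.708% of the genes tested), and of the 144 lower genes 0. For the lower genes this 0 thus does not compare their stability with that of the higher genes. These 25 genes were picked by the comparison itself, so their values are a description, and none passed without the 3 mice named above, where their differences lay between 0.58 and 1.52.

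**Figure D2:**
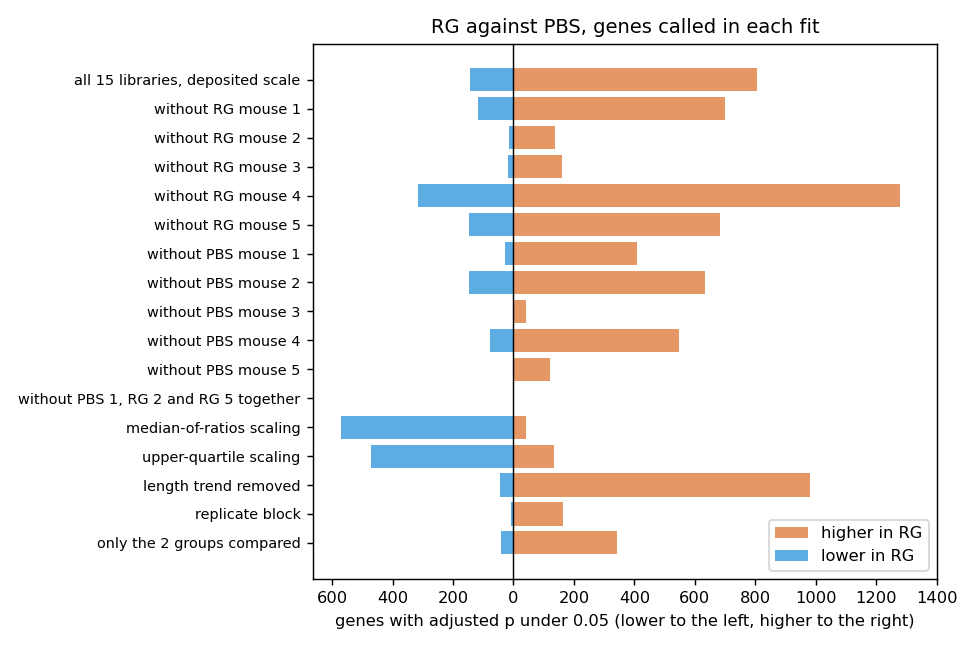
Number of genes with an adjusted p under 0.05 in each fit (linear axis, genes higher in RG to the right of 0, genes lower in RG to the left). The deposited scale with all libraries gives 804 higher and 144 lower genes, the fit without PBS mouse 3 gives 40 and 0, and median-of-ratios scaling gives 42 and 570.

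**Figure D3:**
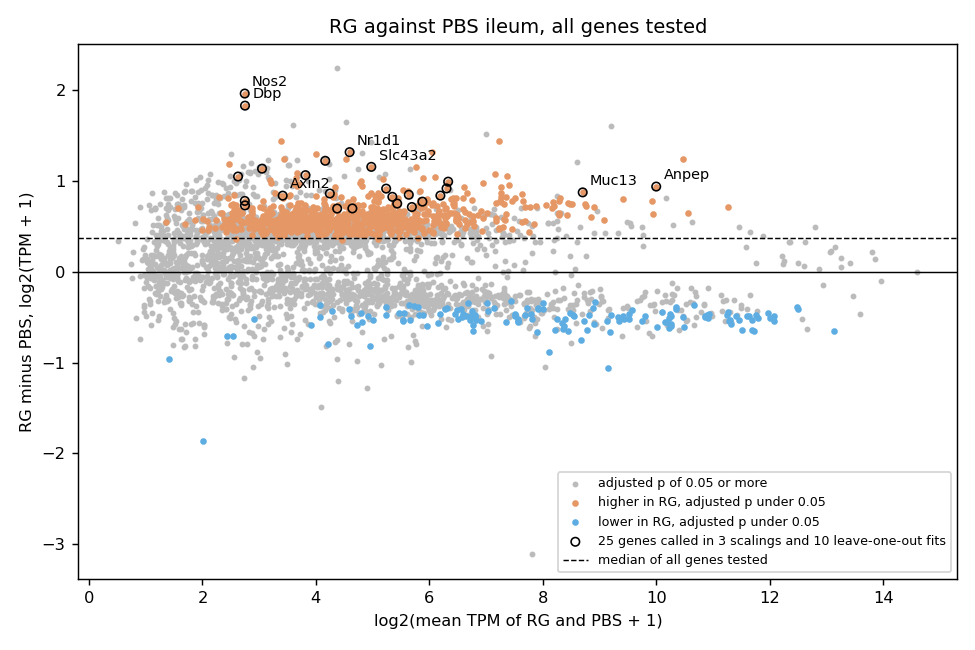
Difference RG minus PBS on the log2(TPM + 1) scale (vertical) against the log2 of the mean TPM of both groups plus 1 (horizontal), 1 point per tested gene. Orange points are higher and blue points lower in RG at an adjusted p under 0.05, and black rings mark the 25 genes that passed on all 3 scales and in the 10 fits without 1 mouse. The dashed line is the median of all genes, 0.38, and Nos2 and Dbp lie farthest above it among the ringed genes, at 1.97 and 1.83.

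Nos2, at chr11:78920787-78960254, encodes the inducible nitric oxide synthase, which makes nitric oxide from arginine and is induced in epithelium and macrophages by bacterial products. Its level was 9.66, 15.2, 4.62, 6.86 and 12.6 TPM in RG mice 1 to 5, against 1.12, 2.09, 1.14, 1.45 and 2.32 TPM in PBS mice 1 to 5. Every RG mouse lay above every PBS mouse, with RG mouse 2 highest and RG mouse 3 lowest among the colonized animals. The means were 9.79 ± 4.26 TPM in RG and 1.62 ± 0.552 TPM in PBS (SD, n = 5 each). The log2 difference was 1.97 (SE 0.306, limma adjusted p = 0.00872), and it was 1.76 after median-of-ratios scaling. Among 11 tested genes of nitric oxide, arginine and polyamine metabolism, 5 were higher in RG and 0 lower, with a median of 0.42. Across all genes 22.8% were higher, and the median was 0.38. Oat, which joins ornithine to glutamate semialdehyde and so to proline and arginine synthesis, differed by 0.94 (200.2 ± 42.0 TPM in RG, 106 ± 31.9 TPM in PBS). Prodh, the first enzyme of proline breakdown, differed by 0.76 (15.8 ± 2.56 TPM in RG, 8.89 ± 1.62 TPM in PBS). Both were called with all mice and neither without PBS mouse 3, at 0.77 for Oat (adjusted p = 0.0670) and 0.72 for Prodh (adjusted p = 0.0708). Prodh also did not pass after median-of-ratios scaling (0.45, adjusted p = 0.0691).

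After Nos2, the widest differences among the 25 genes were those of the clock genes Dbp, Nr1d1 and Nr1d2. The clock is a loop in which the activators CLOCK and BMAL1 bind E-box DNA and drive their own repressors together with output factors. Dbp and Tef are output factors of the PAR bZIP family, while Nr1d1 and Nr1d2 encode REV-ERB repressors that bind nuclear receptor sites and damp Bmal1. Of 9 tested clock genes, 6 were higher in RG and 0 lower, beside 22.8% higher among all genes. Their median was 0.65 on the deposited scale and 0.38 after median-of-ratios scaling. Dbp, Tef, Nr1d1 and Nr1d2 passed on all 3 scales and with any single mouse left out. The other 2, Usp2 and Csnk1d, were picked out after their values were seen, at 0.65 and 0.51, and neither passed after median-of-ratios scaling (0.38 and 0.18). Usp2 lost its call without RG mouse 2 or 3 or PBS mouse 2, 3 or 5, at 0.55 to 0.68 (adjusted p of 0.0514 to 0.102). Csnk1d lost its call without RG mouse 2, 3 or 5 or PBS mouse 1, 2, 3 or 5, at 0.38 to 0.54 (adjusted p of 0.0573 to 0.119).

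The promoter windows of 3 of the 4 clock genes are shown, each for a letter match to a different motif tied to the loop. They run from 250 bases before to 50 bases after the RefSeq start on GRCm38.p6, are written 5′ to 3′ on the gene's strand, and carry the match in capitals. Tef has a CACGTG match in the windows of 2 starts, chr15:81802423-81802722 and chr15:81811164-81811463 (both plus strand). Nr1d1 holds CACGTT as its reverse complement AACGTG, at chr11:98775328-98775627 (minus strand). Nr1d2 holds AGGTCA, the core of nuclear receptor sites, at chr14:18239057-18239356 (minus strand).
Tef, upstream start: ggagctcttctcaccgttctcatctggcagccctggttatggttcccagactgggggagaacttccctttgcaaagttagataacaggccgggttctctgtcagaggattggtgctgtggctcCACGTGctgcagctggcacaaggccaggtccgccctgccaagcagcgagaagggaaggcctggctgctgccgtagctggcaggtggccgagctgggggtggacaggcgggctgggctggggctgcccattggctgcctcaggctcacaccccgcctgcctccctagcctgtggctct
Tef, downstream start: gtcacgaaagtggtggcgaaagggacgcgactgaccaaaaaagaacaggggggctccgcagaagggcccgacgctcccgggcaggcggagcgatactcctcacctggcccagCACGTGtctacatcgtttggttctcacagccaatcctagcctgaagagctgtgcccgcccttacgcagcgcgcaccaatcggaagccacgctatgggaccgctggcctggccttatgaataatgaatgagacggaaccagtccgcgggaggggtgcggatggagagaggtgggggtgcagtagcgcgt
Nr1d1: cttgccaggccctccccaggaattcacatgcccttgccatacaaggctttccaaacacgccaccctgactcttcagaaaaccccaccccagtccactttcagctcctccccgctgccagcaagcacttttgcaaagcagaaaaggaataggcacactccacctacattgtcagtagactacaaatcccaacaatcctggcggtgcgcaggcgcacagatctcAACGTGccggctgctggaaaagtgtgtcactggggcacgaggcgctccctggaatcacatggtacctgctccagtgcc
Nr1d2: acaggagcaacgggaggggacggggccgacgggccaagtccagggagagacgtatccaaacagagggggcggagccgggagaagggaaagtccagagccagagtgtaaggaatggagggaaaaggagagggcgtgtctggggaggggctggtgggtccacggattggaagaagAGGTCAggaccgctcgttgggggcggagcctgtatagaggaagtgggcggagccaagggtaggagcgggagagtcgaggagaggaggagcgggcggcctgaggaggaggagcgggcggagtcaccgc
On both strands, 7.15% of 32851 promoter windows of this length held CACGTG, 4.68% held CACGTT and 16.3% held AGGTCA. Windows were matched for 23 of the 25 genes, of which 2 held CACGTG (Mcoln2 and Tef), 2 held CACGTT (Anks4b and Nr1d1) and 7 held AGGTCA. A gene counted if any of its windows held the letters, and a gene can have several windows. These counts of genes and the shares of single windows are thus unlike measures and show no excess. The Dbp window held none of these letters. The share of windows holding any of these motifs was not computed, so the matches in clock genes are a description only.

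Dbp, at chr7:45705088-45710203, was at 7.14, 14.3, 5.42, 10.6 and 10.4 TPM in RG mice 1 to 5, against 1.15, 1.26, 2.23, 2.18 and 2.68 TPM in PBS mice 1 to 5. The lowest RG mouse was above the highest PBS mouse. The difference was 1.83 (SE 0.276, adjusted p = 0.00870). Nr1d1 was at 20.8, 32.7, 30.4, 33.5 and 48.4 TPM in RG mice 1 to 5, against 6.37, 8.67, 14.3, 18.0 and 18.5 TPM in PBS mice 1 to 5. Here too the groups did not overlap, though the highest PBS mouse came close to RG mouse 1. The difference was 1.32 (SE 0.264, adjusted p = 0.0137).

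Nr1d2 was at 24.7, 21.4, 20.6, 25.4 and 26.8 TPM in RG mice 1 to 5, against 5.89, 6.79, 13.97, 10.6 and 13.1 TPM in PBS mice 1 to 5. The RG mice were close together and the PBS mice more spread. The difference was 1.22 (SE 0.205, adjusted p = 0.0100). Tef was at 9.26, 11.7, 6.97, 8.51 and 15.5 TPM in RG mice 1 to 5, against 2.57, 2.82, 4.34, 5.40 and 5.79 TPM in PBS mice 1 to 5. All RG mice exceeded all PBS mice, and the difference was 1.14 (SE 0.218, adjusted p = 0.0129). For all 4 genes, PBS mice 1 and 2 were the lower ones among the controls. The hour of dissection of each mouse is not in the labels, so hour and colonization cannot be told apart for these genes.

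The brush-border peptidases cut peptides into amino acids at the enterocyte surface. They were higher in RG for 13 of 16 tested genes and lower for 0, beside 22.8% higher among all genes. Their median difference was 0.76 on the deposited scale and 0.42 after median-of-ratios scaling, where 3 of the 16 passed. With 1 mouse left out, 3 to 14 were higher, and 3 when it was PBS mouse 3. Their summed level was 5413, 6908, 6924, 5251 and 5052 TPM in RG mice 1 to 5, against 3338, 4074, 2570, 3179 and 3779 TPM in PBS mice 1 to 5, without overlap. Anpep, aminopeptidase N, is the most abundant of those described here. It was at 1137, 1691, 1329, 1321 and 1223 TPM in RG mice 1 to 5, against 778, 751, 508, 637 and 836 TPM in PBS mice 1 to 5. RG mouse 2 was highest and PBS mouse 3 lowest, with a difference of 0.94 (SE 0.163, adjusted p = 0.0115).

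Xpnpep2, a membrane aminopeptidase that releases a first residue standing before proline, was at 95.4, 99.5, 122, 85.8 and 105 TPM in RG mice 1 to 5, against 44.8, 68.0, 37.2, 55.8 and 65.1 TPM in PBS mice 1 to 5. No PBS mouse reached the lowest RG mouse, and the difference was 0.92 (SE 0.189, adjusted p = 0.0141). Its cytosolic relative Xpnpep1, which is outside the peptidase list, differed by 0.92 as well, with 48.4 ± 8.06 TPM in RG and 25.1 ± 4.09 TPM in PBS (adjusted p = 0.0115). Dpp4, which also acts beside proline, lay between 132 and 204 TPM in RG and between 62.4 and 102 TPM in PBS. Its difference was 0.98 (adjusted p = 0.0141), and 0.89 without PBS mouse 3 (adjusted p = 0.0548). Enpep, glutamyl aminopeptidase, differed by 0.75 (446.7 ± 68.5 TPM in RG, 265.5 ± 35.8 TPM in PBS, adjusted p = 0.0115), but by 0.40 after median-of-ratios scaling (adjusted p = 0.0547).

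Amino acid and peptide transporters take up what the peptidases release. Of 13 tested transporters, 10 were higher in RG and 0 lower, beside 22.8% higher among all genes. Their median was 0.85 on the deposited scale and 0.52 after median-of-ratios scaling, where 3 of the 13 passed. With 1 mouse left out, 3 to 11 were higher, and 3 when it was PBS mouse 3. Slc43a2, which carries large neutral amino acids out of cells, had the widest difference of those passing on all 3 scales. It was at 34.7, 46.4, 36.1, 37.7 and 58.2 TPM in RG mice 1 to 5, against 19.6, 18.5, 14.2, 19.8 and 19.6 TPM in PBS mice 1 to 5. RG mouse 5 was highest and the PBS mice lay close together apart from mouse 3, with a difference of 1.16 (SE 0.210, adjusted p = 0.0115). Slc6a20a, which takes up proline with sodium, lay between 52.1 and 75.8 TPM in RG and between 28.7 and 41.8 TPM in PBS. The difference was 0.85 (SE 0.166, adjusted p = 0.0137), and 0.52 after median-of-ratios scaling (adjusted p = 0.0468).

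Slc6a19, the main sodium-coupled carrier of neutral amino acids at the brush border, was at 221, 222, 266, 247 and 317 TPM in RG mice 1 to 5, against 141, 159, 140, 146 and 146 TPM in PBS mice 1 to 5. The groups did not overlap and the PBS mice varied little. The difference was 0.78 (SE 0.158, adjusted p = 0.0139), 0.44 after median-of-ratios scaling (adjusted p = 0.0995) and 0.51 after upper-quartile scaling (adjusted p = 0.0811). Slc16a10, which carries aromatic amino acids, differed by 0.93 (25.7 ± 5.18 TPM in RG, 12.9 ± 2.50 TPM in PBS). Its call did not survive leaving out PBS mouse 3 (0.84, adjusted p = 0.0670).

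**Figure D4:**
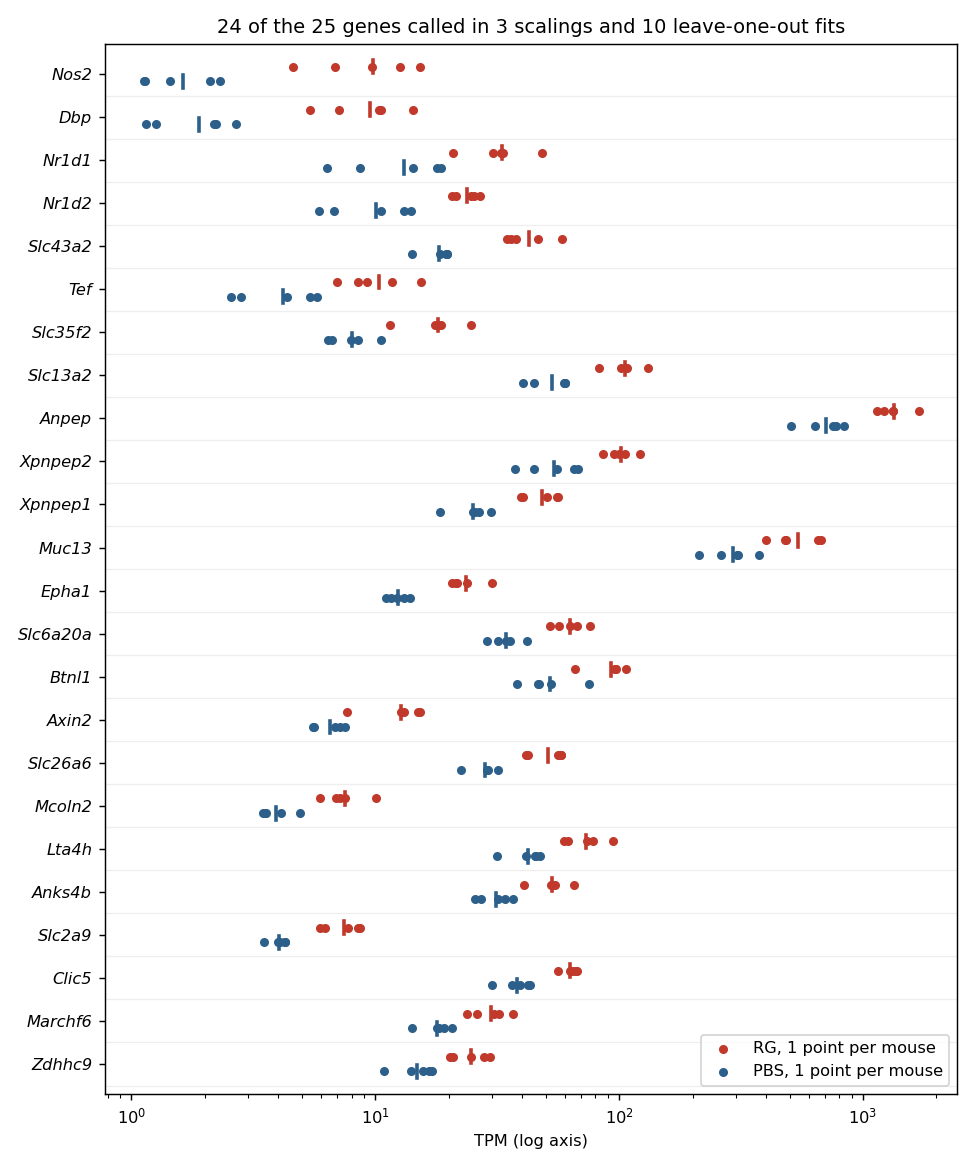
TPM of 24 of the 25 genes that passed on all 3 scales and in the 10 fits without 1 mouse, on a log axis, with RG mice in red above PBS mice in blue and 1 point per mouse. Vertical ticks are group means. The genes run from Nos2 (difference 1.97) at the top to Zdhhc9 (0.70) at the bottom, and the groups overlap only for Btnl1, where RG mouse 4 (65.7 TPM) lies below PBS mouse 2 (75.1 TPM).

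The 25 genes had a median difference of 0.88, against 0.55 after median-of-ratios scaling, and 24 of them showed no overlap between groups. Besides Nos2, the clock genes, the peptidases and the amino acid carriers, they held other transporters. Slc13a2, which takes up citrate and other dicarboxylates with sodium, was at 82.5, 107, 102, 107 and 132 TPM in RG mice 1 to 5, against 44.8, 40.4, 59.3, 60.1 and 59.8 TPM in PBS mice 1 to 5. RG mouse 1 was the lowest RG mouse and still above every PBS mouse, with a difference of 0.99 (SE 0.166, adjusted p = 0.0100). Slc26a6, an anion exchanger that secretes oxalate and bicarbonate, differed by 0.83 (51.2 ± 8.59 TPM in RG, 28.2 ± 3.44 TPM in PBS, adjusted p = 0.0115). Slc2a9, a urate carrier, differed by 0.73 (7.42 ± 1.27 TPM in RG, 4.03 ± 0.326 TPM in PBS, adjusted p = 0.0115). Slc35f2 differed by 1.07 (18.2 ± 4.68 TPM in RG, 8.03 ± 1.68 TPM in PBS, adjusted p = 0.0115).

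Several of the 25 belong to the apical surface. Muc13, a mucin anchored in the brush-border membrane, was at 485, 675, 654, 401 and 478 TPM in RG mice 1 to 5, against 305, 375, 212, 262 and 306 TPM in PBS mice 1 to 5. RG mouse 4 was the closest to the PBS mice but still above all of them, with a difference of 0.88 (SE 0.175, adjusted p = 0.0137). Its window is shown because it holds CAAAGTCCA, a letter match to a site of the enterocyte factor HNF4. These letters were in 0.475% of the 32851 windows and in no other of the 23 genes, which are unlike measures and show no excess. Binding was not tested. In Muc13 they stand as the reverse complement TGGACTTTG at chr16:33794239-33794538 (RefSeq, GRCm38.p6, plus strand).
Muc13: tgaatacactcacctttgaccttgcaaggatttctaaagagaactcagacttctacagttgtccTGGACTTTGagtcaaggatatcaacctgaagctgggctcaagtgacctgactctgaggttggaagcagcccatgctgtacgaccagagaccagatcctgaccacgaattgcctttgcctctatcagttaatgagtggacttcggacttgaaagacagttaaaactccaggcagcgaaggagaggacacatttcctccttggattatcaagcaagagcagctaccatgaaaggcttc
Anks4b, a scaffold of the links between microvillus tips, differed by 0.75 (53.3 ± 8.70 TPM in RG, 31.1 ± 4.68 TPM in PBS, adjusted p = 0.0129). Clic5, a chloride channel family protein that binds the microvillus cytoskeleton, differed by 0.72 (63.1 ± 4.16 TPM in RG, 38.2 ± 5.19 TPM in PBS, adjusted p = 0.0100). Btnl1, which shapes the intraepithelial γδ T cells of the mouse gut, differed by 0.84 (92.5 ± 15.7 TPM in RG, 51.8 ± 13.95 TPM in PBS, adjusted p = 0.0137) and was the only 1 of the 25 whose groups overlapped.

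Signalling genes were also among the 25. Axin2, a feedback inhibitor and target of Wnt signalling that marks crypt cells, was at 7.69, 15.3, 12.8, 14.97 and 13.1 TPM in RG mice 1 to 5, against 7.19, 6.86, 5.56, 7.52 and 5.63 TPM in PBS mice 1 to 5. RG mouse 1 was barely above PBS mouse 4, while the other RG mice were clear of the controls, and the difference was 0.84 (SE 0.166, adjusted p = 0.0137). Among 8 tested Wnt target and crypt base genes, 2 were higher and 0 lower, close to the 22.8% higher among all genes. Epha1, an ephrin receptor, was at 20.6 to 30.1 TPM in RG and 11.1 to 13.9 TPM in PBS (0.86, SE 0.128, adjusted p = 0.00870). Lta4h, which makes leukotriene B4, lay at 73.3 ± 14.02 TPM in RG and 42.2 ± 6.32 TPM in PBS (0.77, adjusted p = 0.0137). Mcoln2, a cation channel of endosomes, lay at 7.51 ± 1.53 TPM in RG and 3.92 ± 0.620 TPM in PBS (0.78, adjusted p = 0.0137). Marchf6, a ubiquitin ligase of the endoplasmic reticulum, and Zdhhc9, a palmitoyltransferase, each differed by 0.70.

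Other enterocyte groups had medians above 0, but few members passed beyond the deposited scale. Of 32 tested genes of the microvillus scaffold, 20 were higher in RG and 0 lower (median 0.58), beside 22.8% higher among all genes. After median-of-ratios scaling 1 was higher, with a median of 0.24. With 1 mouse left out, 5 to 25 were higher. Their summed level was 7312 to 10297 TPM in RG and 4628 to 6784 TPM in PBS, without overlap. Vil1 differed by 0.72, Pls1, an actin bundler, by 0.77 and Ezr, which ties actin to the membrane, by 0.71, and each passed with any single RG or PBS mouse left out. After median-of-ratios scaling these 3 stood at 0.38, 0.43 and 0.37 with adjusted p of 0.0809, 0.0595 and 0.0876.

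Of 18 tested genes of sugar digestion and uptake, 6 were higher and 0 lower (median 0.82), beside 22.8% higher among all genes. After median-of-ratios scaling 1 was higher, with a median of 0.50. With 1 mouse left out, 0 to 10 were higher. Slc5a1, the sodium-glucose cotransporter, was at 174, 238, 296, 209 and 196 TPM in RG mice 1 to 5, against 119, 91.4, 80.6, 124 and 114 TPM in PBS mice 1 to 5. The groups did not overlap, and the difference was 1.06 (SE 0.231, adjusted p = 0.0178), against 0.97 without PBS mouse 3 (adjusted p = 0.0653). Its relative Slc5a4a had the widest difference of the list, 1.44 (14.3 ± 3.05 TPM in RG, 4.66 ± 1.26 TPM in PBS, adjusted p = 0.0290). That call was lost without RG mouse 2 or 3 or PBS mouse 1, 3 or 5, where the difference was 1.31 to 1.54 (adjusted p of 0.0509 to 0.0708). It was also lost after median-of-ratios (1.16, adjusted p = 0.0757) and upper-quartile scaling (1.23, adjusted p = 0.0565).

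Fat absorption and chylomicron assembly had 9 of 18 genes higher and 0 lower (median 0.58), and carriers of nucleosides, vitamins and metals had 14 of 24 higher and 0 lower (median 0.56). After median-of-ratios scaling 0 of the first and 1 of the second group were higher, and without PBS mouse 3, 0 of either. Examples of the second group were Heph, the iron oxidase of the basolateral membrane (0.63), and Cubn, the receptor for the intrinsic factor and vitamin B12 complex (0.67). Both lost their calls without PBS mouse 3, at 0.52 for Heph (adjusted p = 0.0605) and 0.63 for Cubn (adjusted p = 0.0708). Neither passed after median-of-ratios scaling, at 0.30 for Heph (adjusted p = 0.121) and 0.34 for Cubn (adjusted p = 0.243), and Cubn did not pass after upper-quartile scaling (0.41, adjusted p = 0.155). Salt, water and acid-base transport had 10 of 29 genes higher and 0 lower (median 0.50), beside 22.8% higher among all genes. After median-of-ratios scaling 1 was higher and 1 lower. The chloride channel gene Clcn2 differed by 0.82 (26.9 ± 5.41 TPM in RG, 14.6 ± 1.37 TPM in PBS) and passed with any single mouse left out, but stood at 0.50 after median-of-ratios scaling (adjusted p = 0.0678).

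Tight junction and adhesion genes had 15 of 27 members higher and 0 lower (median 0.51), and all solute carriers together had 44 of 116 higher and 0 lower (median 0.53). After median-of-ratios scaling those counts were 0 higher and 0 lower for the junction genes, and 8 higher and 2 lower for the solute carriers. Without PBS mouse 3, 0 junction genes and 7 solute carriers were higher. Among 36 genes of xenobiotic metabolism and efflux, 8 were higher and 0 lower (median 0.42), close to the 22.8% and the median of 0.38 of all genes, and 0 were higher after median-of-ratios scaling. The largest of the named ones were Ces2a, an intestinal carboxylesterase (1.33), and Cyp3a25, a cytochrome P450 (1.24). Both calls were lost without RG mouse 2 or 3 or PBS mouse 3 or 5, at 1.11 to 1.35 for Ces2a (adjusted p of 0.0543 to 0.0786) and 1.2 to 1.31 for Cyp3a25 (adjusted p of 0.0503 to 0.0708). Glycosylation genes had 8 of 23 higher and 0 lower, beside 22.8% higher among all genes. Among them was Galnt6, which starts the O-glycans of mucins (0.67, and 0.34 after median-of-ratios scaling with adjusted p = 0.0509).

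**Figure D5:**
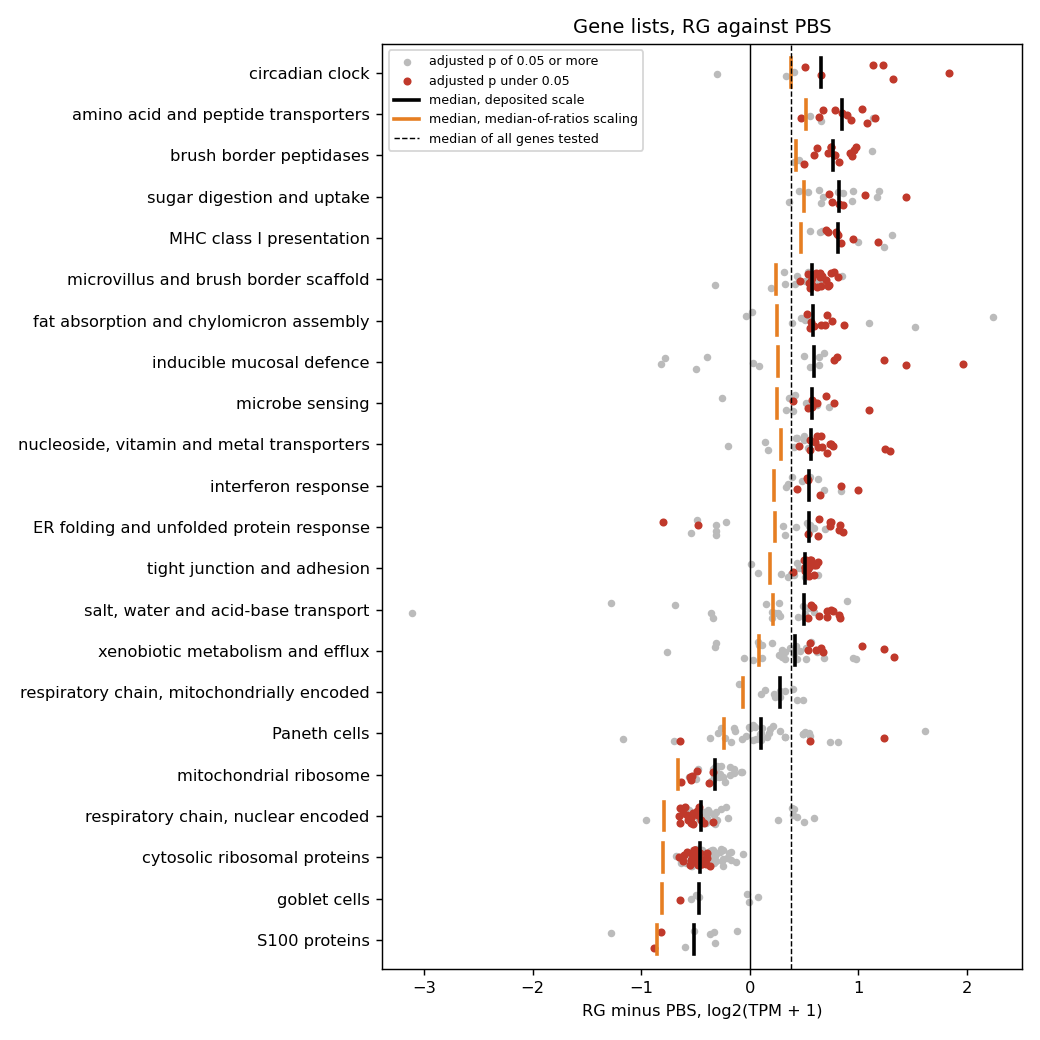
Difference RG minus PBS on the log2(TPM + 1) scale for the tested genes of 22 lists, 1 point per gene, red where the adjusted p is under 0.05. Black bars are list medians on the deposited scale, orange bars the medians after median-of-ratios scaling, and the dashed line is the median of all genes, 0.38. The medians of the clock, transporter and peptidase lists lie right of that line and those of the ribosomal, nuclear respiratory chain, goblet and S100 lists left of 0, while single genes of the clock, transporter, nuclear respiratory chain and goblet lists lie on the other side of 0.

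Defence and sensing genes were higher in part, beside 22.8% higher among all tested genes and a median of 0.38. Of 16 tested genes of inducible mucosal defence, 5 were higher and 0 lower (median 0.60), and of 17 tested genes of microbe sensing 9 were higher and 0 lower (median 0.57). After median-of-ratios scaling 1 gene of each list was higher, and after upper-quartile scaling 3 of mucosal defence and 2 of microbe sensing were. Leaving out single mice gave 2 to 6 higher for mucosal defence and 1 to 13 for microbe sensing, lowest for both without PBS mouse 3. Gsdmd, the pore-former released by inflammatory caspases, was at 100.4, 105, 106, 76.6 and 136 TPM in RG mice 1 to 5, against 54.2, 70.3, 53.8, 52.8 and 63.0 TPM in PBS mice 1 to 5. The groups were apart, with a difference of 0.81 (SE 0.161, adjusted p = 0.0137) that passed with any single RG or PBS mouse left out but not after median-of-ratios (0.47, adjusted p = 0.0577) or upper-quartile scaling (0.54). Irak2, a kinase of Toll-like and interleukin-1 receptor signalling, differed by 0.70 and likewise passed with any single mouse left out (31.8 ± 6.26 TPM in RG, 18.9 ± 1.29 TPM in PBS), but stood at 0.37 after median-of-ratios scaling (adjusted p = 0.0660). Nlrp6, an epithelial inflammasome sensor, differed by 0.77 (41.9 ± 6.34 TPM in RG, 24.1 ± 3.31 TPM in PBS), by 0.68 without PBS mouse 3 (adjusted p = 0.0653) and by 0.44 after median-of-ratios scaling (adjusted p = 0.0678).

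The antimicrobial lectin gene Reg3g was less even. It was at 1446, 4820, 2272, 1530 and 559 TPM in RG mice 1 to 5, against 708, 930, 637, 559 and 784 TPM in PBS mice 1 to 5. RG mouse 5 lay at the level of the lowest PBS mouse and RG mouse 2 far above the rest. The difference of 1.24 (adjusted p = 0.0482) passed only without RG mouse 4 or 5 among the 10 fits without 1 mouse, and it stood at 0.86 to 1.34 in the other 8 (adjusted p of 0.0514 to 0.116). Nor did it pass after median-of-ratios (0.90, adjusted p = 0.159) or upper-quartile scaling (0.97, adjusted p = 0.0880). Pigr, which carries immunoglobulin A across the epithelium, was at 171, 443, 187, 159 and 117 TPM in RG mice 1 to 5, against 179, 79.7, 35.2, 60.2 and 55.6 TPM in PBS mice 1 to 5. PBS mouse 1 overlapped the RG mice, and the difference of 1.44 (adjusted p = 0.0374) was 1.14 without RG mouse 2 (adjusted p = 0.0965). It also lost its call without RG mouse 3 or PBS mouse 3, 4 or 5, at 1.2 to 1.45 (adjusted p of 0.0577 to 0.105), and after median-of-ratios scaling (1.11, adjusted p = 0.0852).

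Antigen presentation and interferon genes had medians above that of all genes, and their calls depended on several single mice. Among all genes 22.8% were higher, with a median of 0.38. MHC class I presentation had 8 of 14 tested genes higher and 0 lower (median 0.81), against 0 higher and a median of 0.47 after median-of-ratios scaling. With 1 mouse left out, 0 were higher when it was PBS mouse 3, 1 when it was RG mouse 2 or PBS mouse 5, and 2 when it was RG mouse 3 or PBS mouse 1. The median was 0.57 without RG mouse 2, which had the high T cell sum. Interferon response genes had 6 of 14 higher and 0 lower (median 0.55), against 0 higher and a median of 0.23 after median-of-ratios scaling. They had 0 higher without RG mouse 2 (median 0.42), PBS mouse 3 (0.47) or PBS mouse 5 (0.56), and 2 higher without RG mouse 3 or PBS mouse 1. T and NK cell genes themselves had 0 of 17 called in either direction, with a median of 1.00 and of 0.16 without RG mouse 2. Cd3e, a chain of the T cell receptor complex, was at 3.85, 56.2, 3.66, 1.89 and 3.40 TPM in RG mice 1 to 5, against 2.49, 1.64, 1.6, 1.13 and 3.44 TPM in PBS mice 1 to 5. Tcf7, a transcription factor of naive and memory T cells, was at 44.9 TPM in RG mouse 2, while the remaining RG mice held 1.33 to 2.00 TPM, against 0.604 to 1.93 TPM in PBS. Outside RG mouse 2 the groups overlapped for both genes. The part of these cells in the class I and interferon values was not tested.

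Genes of protein folding in the endoplasmic reticulum split in direction, with 9 of 27 higher and 2 lower (median 0.55). Among all genes 22.8% were higher and 4.08% lower. After median-of-ratios scaling 0 folding genes were higher and 6 lower. Hyou1, a large chaperone of the stress response, was at 17.0, 41.5, 24.5, 19.5 and 21.8 TPM in RG mice 1 to 5, against 18.1, 14.6, 7.51, 12.3 and 12.7 TPM in PBS mice 1 to 5. PBS mouse 1 lay above RG mouse 1, and RG mouse 2 was highest. The difference of 0.86 (adjusted p = 0.0274) was lost without RG mouse 2 or 3 or PBS mouse 3 or 5, at 0.66 to 0.86 (adjusted p of 0.0533 to 0.0820). Fkbp11, a prolyl isomerase of secretory cells, was the larger of the decreases, at 14.5, 12.7, 15.1, 12.8 and 6.76 TPM in RG mice 1 to 5, against 38.3, 21.4, 20.2, 18.6 and 15.1 TPM in PBS mice 1 to 5. It fell by 0.80 on the log2 scale (adjusted p = 0.0333), and did not pass without RG mouse 2, 3 or 5 or PBS mouse 1, 3 or 5, at -0.92 to -0.60 (adjusted p of 0.0524 to 0.0835).

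Genes of translation and respiration were among the lower ones. Cytosolic ribosomal proteins had 35 of 77 members lower in RG and 0 higher (median -0.46), beside 4.08% lower among all genes. After median-of-ratios scaling 71 were lower (median -0.80), beside 16.1% of all genes. After upper-quartile scaling 59 were lower, beside 13.4% of all genes. On the deposited scale with 1 mouse left out, 0 to 49 were lower, and 0 when it was PBS mouse 3. Their share of all TPM was 13.1, 13.4, 12.3, 15.3 and 15.04% in RG mice 1 to 5, against 19.2, 15.1, 20.6, 18.9 and 20.0% in PBS mice 1 to 5, so PBS mouse 2 fell within the RG range. Rps16, of the small subunit, was at 1970, 2140, 1922, 2207 and 2000 TPM in RG mice 1 to 5, against 3250, 2388, 3411, 3052 and 3230 TPM in PBS mice 1 to 5. All RG mice were below all PBS mice, of which mouse 2 was the lowest. The difference was -0.57 (SE 0.136, adjusted p = 0.0225), and -0.53 without PBS mouse 3 (adjusted p = 0.0708) and -0.55 without PBS mouse 5 (adjusted p = 0.0524).

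Nuclear genes of the respiratory chain had 21 of 56 members lower and 0 higher (median -0.45). Those of the mitochondrial ribosome had 7 of 32 lower and 0 higher (median -0.32), beside 4.08% lower among all genes. After median-of-ratios scaling 42 and 25 were lower, with medians of -0.79 and -0.66, beside 16.1% of all genes. On the deposited scale without PBS mouse 3, 0 of either list were lower. Without RG mouse 2, 1 respiratory gene and 0 mitochondrial ribosome genes were lower, and without PBS mouse 5, 1 of each. The 11 mitochondrially encoded genes had 0 called in either direction, with a median of 0.28 that turned to -0.07 after median-of-ratios scaling. Ndufb6, a subunit of complex I, was at 357, 258, 328, 471 and 302 TPM in RG mice 1 to 5, against 655, 433, 549, 524 and 488 TPM in PBS mice 1 to 5. RG mouse 4 overlapped the PBS mice. The difference was -0.64 (adjusted p = 0.0225), and it lost its call without RG mouse 2 (-0.55, adjusted p = 0.0503) or PBS mouse 3 (-0.62, adjusted p = 0.0685). Mrpl20, of the large mitochondrial subunit, lay at 67.0 to 107 TPM in RG and 109 to 145 TPM in PBS. Its difference of -0.53 (adjusted p = 0.0240) was -0.44 without RG mouse 2 (adjusted p = 0.0518) and -0.50 without PBS mouse 3 (adjusted p = 0.0708), and it was -0.11 with the length trend removed (adjusted p = 0.352).

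Transcript length ran along with the direction. The median summed exon length was 4814.5 bases for genes higher in RG, 1612 for genes lower and 3786 for all tested genes, and across 3527 genes, which are not independent, its rank correlation (Spearman) with the difference was 0.384. When the trend of each library with length was removed, 980 genes were higher and 46 lower. The median of the cytosolic ribosomal genes was then -0.07 with 9 lower and 1 higher, and that of the nuclear respiratory genes turned to 0.06 with 4 lower and 3 higher. The mitochondrial ribosome list stood at -0.09 with 2 lower and 3 higher. Of the lists whose median was not below 0 on the deposited scale, some moved up and others down. Among those moving down, tight junction and adhesion genes went from 0.51 to 0.46 and clock genes from 0.65 to 0.61. The 11 mitochondrially encoded genes went from a median of 0.28 with 0 called to 0.88 with 7 higher. Paneth cell genes went from 0.10 to 0.97, with 5 higher and 0 lower. What the length trend stems from was not tested. The 25 genes described above kept a median of 0.88 and all passed.

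Of 9 tested S100 calcium-binding protein genes, 2 were lower and 0 higher (median -0.52, and 0.14 with the length trend removed). S100a6 was at 166, 153, 206, 231 and 191 TPM in RG mice 1 to 5, against 599.7, 326, 334, 290 and 261 TPM in PBS mice 1 to 5. The groups did not overlap, and PBS mouse 1, the mouse with the high liver and smooth muscle sums, was highest. The difference was -0.88 (adjusted p = 0.0319), and -0.68 without PBS mouse 1 (adjusted p = 0.0609). It also lost its call without RG mouse 2 or 3 or PBS mouse 3 or 5, at -0.98 to -0.81 (adjusted p of 0.0524 to 0.0835).

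Goblet cell genes had 2 of 7 lower after median-of-ratios scaling. On the deposited scale 1 was lower and 0 higher (median -0.47, and 0.21 with the length trend removed). The 1 lower gene, Spink4, a secreted peptide of goblet and Paneth cells, was at 2285, 1736, 2095, 2548 and 2391 TPM in RG mice 1 to 5, against 6487, 2845, 3555, 2538 and 2794 TPM in PBS mice 1 to 5. PBS mouse 1 was again highest and RG mouse 4 overlapped PBS mouse 4. The difference of -0.64 (adjusted p = 0.0412) was -0.41 without PBS mouse 1 (adjusted p = 0.0692), and it failed without RG mouse 1, 2 or 3 or PBS mouse 3 or 5 too, at -0.71 to -0.56 (adjusted p of 0.0522 to 0.103). Paneth cell genes had 2 of 40 higher and 1 lower (median 0.10, turning to -0.24 after median-of-ratios scaling). Among all genes 22.8% were higher and 4.08% lower. Smooth muscle genes had 0 of 13 called (median -0.39), and liver genes 0 of 15 (median -0.77). After median-of-ratios scaling 9 of the smooth muscle genes and 2 of the liver genes were lower, beside 16.1% of all genes.

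RG was also set against LGG in the same fit, which shares the RG libraries with the comparison above. Of the 3530 genes 2176 differed (61.6%), 289 higher in RG than in LGG (8.19%) and 1887 lower (53.5%), with a median of -0.72. Listed genes held 48.0 to 52.5% of all TPM in LGG and 58.7 to 66.1% in RG. Of the 25 genes, 22 were lower in RG than in LGG, 0 were higher and 3 did not pass, so the means of these 22 lay between the LGG and the PBS means. Median-of-ratios scaling left 20 lower and 1 higher, and after upper-quartile scaling 16 and 1. Dbp averaged 9.56 ± 3.43 TPM in RG and 44.0 ± 18.1 TPM in LGG (SD, n = 5 each), a difference of -2.07 (SE 0.276, adjusted p = 2.79e-05). Anpep averaged 1340 ± 211 TPM in RG and 3882 ± 658 TPM in LGG, a difference of -1.53 (SE 0.163, adjusted p = 6.88e-06).

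Nos2 stood out from this order. It averaged 9.79 ± 4.26 TPM in RG and 7.40 ± 2.85 TPM in LGG, a difference of 0.35 that did not pass (SE 0.306, adjusted p = 0.346), and of 0.79 that passed after median-of-ratios scaling (adjusted p = 0.0236). Axin2 (-0.30, adjusted p = 0.131) and Mcoln2 (-0.37, adjusted p = 0.0537) were the other genes that did not pass. Nr1d2 differed by -0.54 (adjusted p = 0.0297) and by -0.03 after median-of-ratios scaling, and Slc35f2 by -0.62 (adjusted p = 0.00940) and -0.12. By list, peptidases were lower in RG than in LGG for 16 of 16 genes and cytosolic ribosomal genes higher for 60 of 77. Paneth cell genes were higher in RG for 36 of 40 and lower for 1. They held 0.467 to 3.25% of all TPM in LGG and 12.03 to 16.6% in RG. Cytosolic ribosomal genes held 7.46 to 9.96% in LGG and 12.3 to 15.3% in RG. Microvillus scaffold genes held 1.96 to 2.37% in LGG and 0.731 to 1.03% in RG. The part of this make-up in the calls against LGG was not tested.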

How the data were processed

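RNA of whole ileum was sequenced from 15 mice, 5 per group, and each mouse gave 1 library. Per the labels' protocols, total RNA was purified with an RNeasy kit and a NEBNext Ultra II kit gave the libraries, and the submitters' processing notes name GRCm38 (mm10) as the build. The authors deposited 1 table of TPM for 4178 genes. How reads were aligned, counted and the genes chosen is not given in the sources used here. TPM keeps no depth, so no counting error or detection limit is given, and a change in abundant genes moves the TPM of all others.

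From the deposited TPM, genes with at least 1 TPM in 5 or more libraries (3530 genes) were fitted with limma-trend and robust shrinkage (limma 3.58.1, R 4.3.3) on log2(TPM + 1). A pseudocount of 1 understates the change of low genes. All 15 libraries entered 1 model of 3 groups without covariates, with 2-sided tests of RG minus PBS and RG minus LGG, Benjamini-Hochberg adjustment over all 3530 genes and a threshold of 0.05. Differences are in log2(TPM + 1), with a standard error, and means are TPM ± SD over mice. The fit was also run on simulated data with independent noise for each gene and library. That simulation held no effects of library, scaling or length, so it cannot decide how far the calls depend on them. The filter took in 55 genes that reach 1 TPM in exactly 5 libraries (median 0.789 TPM) and left out 33 that reach it in exactly 4 (median 0.651 TPM).

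Alternatives were 2 other scalings, pseudocounts of 0.1 and 5, other filters, only the compared groups, a mouse-number block, removal of single mice and of 3 mice together, removal of the length trend, and no robust shrinkage. Of 4178 identifiers, 4173 matched GENCODE mouse release 21, an annotation of GRCm38 that gave positions and summed exon lengths. The genes in the text follow a rule that took genes passing on all scales and with any single mouse left out, the 12 largest changes in each direction and up to 4 members of each of 57 gene lists, or all members of lists with 8 or fewer tested. The comparison, the lists and the rule were chosen with earlier results of these data known. Of the 25 genes passing on all scales and with any single mouse left out, 1 is not reported here. Promoter windows came from RefSeq (GRCm38.p6).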

Additional observations from a re-analysis of the deposited data

Results flagged for a closer look

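A sample was picked out where its gap to the nearest mouse of its group, divided by the group's range, exceeded Dixon's 95% critical value of 0.71 for 5 mice. Of 166 groups of values examined, 21 were picked out, and chance alone picks about 1 in 20.

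RG mouse 2 was high for the summed TPM of T and NK cell genes (1056, next 83.1), B and plasma cell genes (608, next 245) and myeloid genes (206, next 53.8). In the same mouse Cd3e was at 56.2 TPM (next 3.85), Tcf7 at 44.9 TPM (next 2.00) and Pigr at 443 TPM (next 187).

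PBS mouse 1 was high for the summed TPM of liver genes (1209, next 389), B and plasma cell genes (359, next 151), mast cell genes (14.6, next 2.23) and tuft cell genes (77.6, next 46.6). S100a6 (599.7 TPM, next 334), Spink4 (6487 TPM, next 3555) and Fkbp11 (38.3 TPM, next 21.4), all lower in RG, were also highest in that mouse.

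PBS mouse 2 was high for erythrocyte genes (8461 TPM summed, next 2521) and for Ces2a (78.8 TPM, next 31.3). PBS mouse 3, whose removal took away the most calls, was low for Slc43a2 (14.2 TPM, next 18.5) and Nlrp6 (18.3 TPM, next 24.9). RG mouse 5 was high for Clcn2 (36.5 TPM, next 25.5) and low for Fkbp11 (6.76 TPM, next 12.7), and RG mouse 4 was low for Btnl1 (65.7 TPM, next 96.1).

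Car1, a carbonic anhydrase typical of colon epithelium, was at 1.06, 3.27, 943, 1.23 and 6.66 TPM in RG mice 1 to 5, against 620, 35.4, 238, 377 and 2.38 TPM in PBS mice 1 to 5. RG mouse 3 was far above the other RG mice, both groups covered a wide range, and the difference of -3.11 did not pass (adjusted p = 0.277).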

How the results depend on the processing

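RG against PBS gave 948 genes (804 higher, 144 lower). Median-of-ratios scaling gave 612 (42 higher, 570 lower), upper-quartile scaling 605 (133 higher, 472 lower), the fit of only RG and PBS 383 (343 higher, 40 lower), and the length trend removed 46 lower. With RG mice 2 and 5 and PBS mouse 1 all left out, limma called 0 genes (0 higher, 0 lower), with 965 at an unadjusted p under 0.05. Leaving out single mice gave 40 to 1594 genes (40 to 1278 higher, 0 to 316 lower). Mouse numbers of the labels pair no animals. Same-numbered RG and PBS mice had correlated deviations of -0.29 to 0.14, 0 of the RG mice correlated best with their own number, and a replicate block gave 174 genes (165 higher, 9 lower). The other pseudocounts, filters and shrinkage kept each count within 1.5 times. RG against LGG gave 2176 genes, and 2017 to 2281 without single mice.

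With the length trend removed, Ndufb6 turned to 0.11 and Spink4 to 0.21 for RG against PBS, neither passing. Against LGG, Nr1d2 turned to 0.14 and Slc35f2 to 0.0533 after upper-quartile scaling, neither passing. The causes were not tested. Of the 58 genes followed, 21 changed their side of the threshold after median-of-ratios scaling and 8 after upper-quartile scaling. TPM without depth limits what low genes can show, and the 5 mice a group limit the rest.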

Other observations

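Several gene groups not described above are given beside all genes, of which 22.8% were higher and 4.08% lower in RG, with a median of 0.38. Of 30 tested ubiquitin ligases and deubiquitinases, 13 were higher and 0 lower (median 0.47), against 0 higher and 2 lower after median-of-ratios scaling. Bile acid handling had 3 of 7 higher and 0 lower (median 0.61), sterol synthesis 2 of 9 higher and 0 lower (median 0.56) and fatty acid oxidation 4 of 17 higher and 0 lower (median 0.44), and in each of the 3 lists 0 genes passed after median-of-ratios scaling. Translation factors had 1 of 18 higher and 3 lower (median -0.19), against 0 higher and 8 lower after median-of-ratios scaling. Enteroendocrine markers had 1 of 5 higher and 0 lower (median -0.04), and tuft cell markers 1 of 7 higher and 0 lower (median 0.68).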
